A study of Mus musculus with 6 samples.

Results

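Glycolysis breaks glucose down to pyruvate, the lactate enzymes and transporters turn pyruvate into lactate and move it across the membrane, and the pentose phosphate arm draws hexose phosphate off for ribose and NADPH. The 37 genes described here cover this route from glucose uptake to lactate, pyruvate dehydrogenase and the pentose phosphate arm. They were chosen by symbol from the list of enzymes and transporters of these steps, with earlier results of these data known. All 37 were found among the 55367 genes of the table, and all 37 passed the filter on low values. By role they comprised 2 glucose transporters, 13 genes of upper glycolysis (hexokinase to triosephosphate isomerase, with the PFKFB enzymes), 5 of lower glycolysis (glyceraldehyde-3-phosphate dehydrogenase to pyruvate kinase), 4 of lactate handling, 6 of the pyruvate dehydrogenase complex and its kinases, and 7 of the pentose phosphate arm.

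RNA-seq was performed on 3 libraries of WT LSCs and 3 libraries of Piezo1cko LSCs, the leukemia stem cells of mice with AML driven by the MLL-AF9 fusion. Donors were Mx1-cre; Piezo1 fl/fl mice or Piezo1 fl/fl littermates, both given pIpC, the double-stranded RNA that induces the interferon-responsive Mx1-cre, which is not restricted to blood cells. Lineage-negative bone marrow cells from these donors received an MLL-AF9 retrovirus carrying a YFP reporter and were transplanted into irradiated C57BL/6 recipients, and all 6 libraries came from bone marrow of AML mice of 8 to 10 weeks of age, sorted as Lin- Sca-1- c-Kit+ CD34+ CD16/32+ cells. The labels do not say that the libraries were separate animals, so the p-values measure the spread between these samples, which may be technical.

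The deposited values are on a log2 scale, normalized between libraries and pulled towards each gene's mean (the form of a regularized log), so their differences understate those of the reads. Undoing the pull returned 14112076 to 15483545 reads on genes per library, and reads given below are these recovered reads divided by the library's size factor, whereas log2 fold changes are of the deposited values (Piezo1cko minus WT) unless recovered reads are named. *Piezo1* itself, counted over its whole length, had 101, 92.8 and 109 reads in WT and 36.6, 56.5 and 45.8 in Piezo1cko libraries, and the groups did not overlap. Of the surface markers gated in the sort, *Kit* (log2 fold change 0.31) and *Cd34* (0.46) were higher in Piezo1cko LSCs and *Fcgr3* was not called. Of the leukemia stem cell transcription factor genes, *Meis1* (-0.13) was lower and *Hoxa9* was not called. *Ly6a*, which encodes Sca-1, had at most 1.01 reads in WT and 7.12 to 16.6 reads in Piezo1cko libraries. *Cd3e*, *Cd4*, *Cd8a*, *Ms4a1*, *Ly6g* and *C1qa* had at most 3 reads in each library. Other marker sums differed: 4 mast cell and basophil markers summed to 662 to 723 reads in WT and 5155 to 5515 in Piezo1cko libraries, 4 neutrophil markers to 466 to 507 and 22.4 to 28.5, 4 erythroid markers to 88.3 to 103 and 22.4 to 33.1 and 4 B cell markers to 1533 to 1597 and 2404 to 2627. Of 3 megakaryocyte markers, which summed to 209 to 260 and 267 to 302 reads, *Itga2b* was higher (log2 fold change 0.44) and *Pf4* lower (-0.54, with 78.9 to 108 and 7.31 to 9.75 reads), with *Gp9* higher at no more than 9.75 reads. The 4 macrophage markers summed to 2223 to 2427 and 2259 to 2292 reads, 4 T cell markers to 3.85 to 7.76 and 0 to 1.95, and 4 proliferation markers to 10478 to 10786 and 7814 to 8566. The part of these differences in the results below was not tested, and in bulk RNA fewer cells of a type and less RNA per cell cannot be told apart.

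Several of these steps are served by more than one isoenzyme. Hexokinase traps glucose in the cell, phosphofructokinase commits it to glycolysis and is tuned by the sugar bisphosphate that PFKFB enzymes make and remove, and pyruvate kinase forms pyruvate at the end of the route. Lactate dehydrogenase reduces pyruvate to lactate, which leaves or enters the cell through monocarboxylate transporters, while pyruvate dehydrogenase sends pyruvate into the mitochondrial citrate cycle unless its kinases switch it off. Hypoxia-inducible factor, of which *Hif1a* encodes the regulated subunit, is known to activate many of these genes. Leukemia cells, like other dividing cells, are known for a high glycolytic flux. For human LSCs, however, the study's introduction describes dependence on oxidative phosphorylation, and for normal hematopoietic stem cells reliance mainly on glycolysis.

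The genes of the pathway changed in both directions, and several of the largest changes were in isoenzymes of the same step. At an adjusted p under 0.05 (limma, adjusted over all genes tested), 11 of the 37 genes were higher, 20 lower and 6 not called in Piezo1cko LSCs. The same threshold was passed by 63.0% of all 16746 genes tested, 31.6% higher and 31.4% lower, and by 71.0% of genes averaging 500 reads or more, where 22 of 26 pathway genes passed. In 11 genes every Piezo1cko library lay above every WT library and in 21 below, against 66.6% of all genes in either direction. The median log2 fold change was -0.07 over the pathway and 0.0006 over all genes, and the median size of the change was 0.15 and 0.09. On recovered reads that order was reversed, with a median size of 0.23 over the pathway and 0.44 over all genes. No pathway gene passed both DEG thresholds of the study (adjusted p under 0.05 and absolute log2 fold change over 1) on the deposited scale, which 0.818% of all genes did. On recovered reads (limma-voom) 3 did, *Pfkm* and *Aldoc* higher and *Ldhb* lower, against 24.9% of all genes. Among those averaging 500 reads or more, the share on recovered reads was 3.22%, with 0 of 26 pathway genes. All 31 calls at an adjusted p under 0.05 were also made on recovered reads, in the same direction, where 62.9% of all genes passed.

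**Figure D1:**
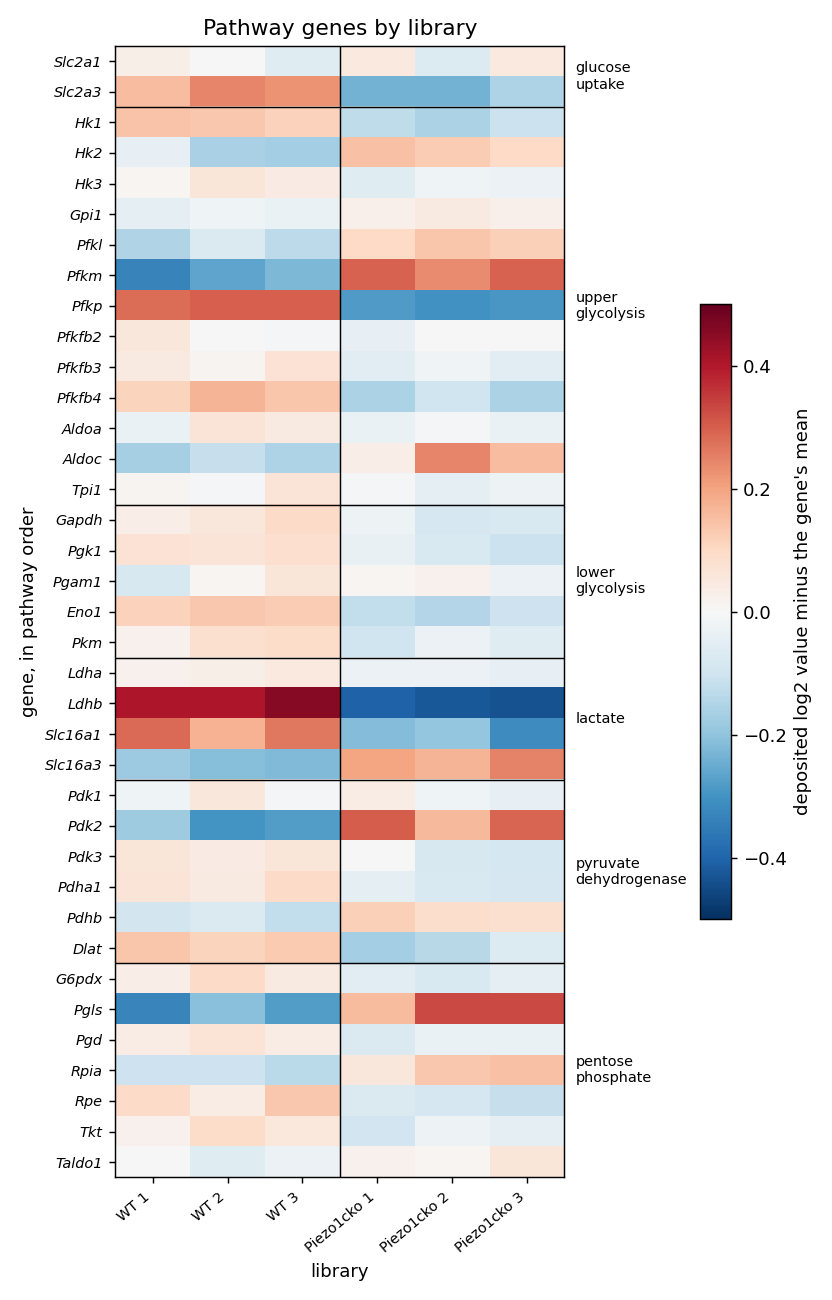
Deposited log2 value of each of the 37 pathway genes (rows, in pathway order) in each library (columns), minus the gene's mean over the 6 libraries; red is above and blue below that mean, and black lines separate roles and groups. *Ldhb*, *Pfkp*, *Slc16a1* and *Slc2a3* are red in all WT libraries and blue in all Piezo1cko libraries, *Pfkm*, *Pgls*, *Pdk2* and *Slc16a3* the reverse.

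**Figure D2:**
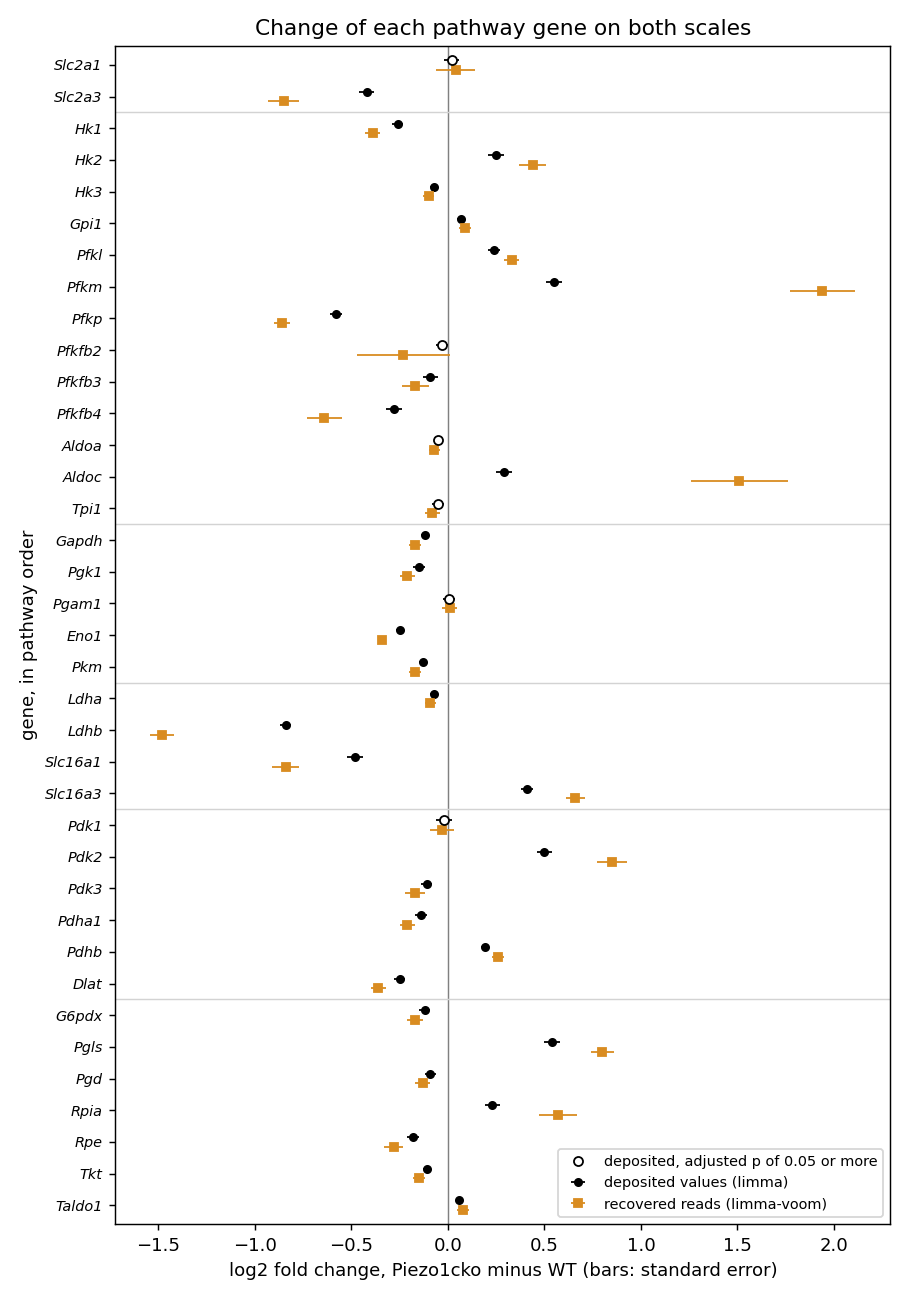
Log2 fold change, Piezo1cko minus WT, of the 37 genes in pathway order, on deposited values (circles, open where the adjusted p is 0.05 or more) and on recovered reads (squares), with bars of 1 standard error. The 5 genes of lower glycolysis lie between -0.25 and 0.005 on deposited values, while the isoenzymes of phosphofructokinase lie between -0.58 and 0.55.

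Of the glucose transporters, *Slc2a3* fell and *Slc2a1* did not pass the test. *Slc2a3* (chromosome 6 of GRCm38, 122727809 to 122801640, minus strand) encodes GLUT3, a high-affinity transporter. It had 322, 361 and 354 reads in WT and 184, 183 and 208 in Piezo1cko libraries, and the lowest WT library lay well above the highest Piezo1cko library. Its mean was 55.4% of WT (log2 fold change -0.42, standard error 0.04, limma adjusted p = 4.17e-08). *Slc2a1*, encoding GLUT1, the widespread basal transporter, had 205, 195 and 178 reads in WT and 210, 174 and 212 in Piezo1cko libraries, with overlapping groups (log2 fold change 0.02, standard error 0.04, limma adjusted p = 0.71). Per exon base, *Slc2a1* was 53.5% ± 2.99 (SD, n = 3) of the pair in WT and 68.1% ± 1.99 in Piezo1cko LSCs, a difference with an exact permutation p of 0.1, the smallest that 3 libraries against 3 can give two-sided. Of 20 such shares compared over 8 families, 18 reached it (adjusted p at least 0.111), as did all 7 ratios of reads (adjusted p 0.1). The shares within a family are not independent, and in a family of a pair both genes give the same test.

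Among the hexokinases, *Hk1* and *Hk3* fell while *Hk2* rose. *Hk3*, the isoenzyme characteristic of myeloid cells, had the highest level of the 3 per exon base, 83.8% ± 0.766 of the family in WT and 84.0% ± 0.437 in Piezo1cko LSCs (exact permutation p = 0.8). Its reads were 4219, 4433 and 4357 in WT and 3945, 4111 and 4059 in Piezo1cko libraries (log2 fold change -0.07, standard error 0.02, limma adjusted p = 0.0137), and this call was lost without WT replicate 2 (adjusted p = 0.0631) or WT replicate 3 (0.0528). *Hk1* (chromosome 10, 62268855 to 62379908, minus strand), the housekeeping form bound to mitochondria, had 1458, 1447 and 1416 reads in WT and 1097, 1073 and 1129 in Piezo1cko libraries. That is 76.3% of the WT mean, with no overlap (log2 fold change -0.26, standard error 0.03, limma adjusted p = 5.21e-07). *Hk2* (chromosome 6, 82725025 to 82774454, minus strand), the inducible form, had 388, 334 and 327 reads in WT and 487, 474 and 462 in Piezo1cko libraries. The 3 Piezo1cko libraries lay above all WT libraries, 1.36-fold higher on average (log2 fold change 0.25, standard error 0.04, limma adjusted p = 3.05e-05). The ratio of *Hk2* to *Hk1* reads accordingly went from 0.243 ± 0.0203 in WT to 0.431 ± 0.0194 in Piezo1cko LSCs (exact permutation p = 0.1).

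Phosphofructokinase changed in its makeup, with the platelet form *Pfkp* lower and the liver form *Pfkl* and the muscle form *Pfkm* higher. *Pfkp* (chromosome 13, 6579768 to 6648777, minus strand) had 1687, 1728 and 1730 reads in WT and 951, 937 and 941 in Piezo1cko libraries, with little spread in either group. It fell to 55.0% of the WT mean (log2 fold change -0.58, standard error 0.03, limma adjusted p = 4.64e-12). *Pfkm* (chromosome 15, 98092589 to 98132451, plus strand) had 30.1, 39.4 and 46.2 reads in WT and 153, 136 and 153 in Piezo1cko libraries. The lowest Piezo1cko library stood far above the highest WT library, and the mean was 3.82-fold higher (log2 fold change 0.55, standard error 0.04, limma adjusted p = 1.09e-09), with a log2 fold change of 1.94 on recovered reads. *Pfkl*, with the highest level of the 3 per exon base, had 3949, 4277 and 4040 reads in WT and 5041, 5226 and 5107 in Piezo1cko libraries, 1.25-fold higher (log2 fold change 0.24, standard error 0.03, limma adjusted p = 2.77e-07). Per exon base, *Pfkp* went from 17.0% ± 0.46 of the family in WT to 7.98% ± 0.157 in Piezo1cko LSCs, *Pfkm* from 1.53% ± 0.305 to 5.0% ± 0.37, and *Pfkl* from 81.4% ± 0.548 to 87.0% ± 0.515 (exact permutation p = 0.1 for each). The ratio of *Pfkl* to *Pfkp* reads was 2.34, 2.48 and 2.34 in WT and 5.3, 5.58 and 5.43 in Piezo1cko libraries.

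The promoters of *Pfkl* and *Pfkp* are shown because these isoenzymes went opposite ways. Each line gives the 150 bases before the RefSeq start (GRCm38.p6), 5′ to 3′ on the gene's strand, here minus for both, from chr10:78009808-78009957 and chr13:6648772-6648921. Capitals mark ACGTG or GCGTG, the core of the element that hypoxia-inducible factor is known to bind, on either strand (CACGT and CACGC on the strand printed). The first window holds 1 match and the second 3, and a match is a description of the letters, not of binding. Of the *Pfkp* window, 6 bases lie in annotated exons, and none of the *Pfkl* window.
Pfkl: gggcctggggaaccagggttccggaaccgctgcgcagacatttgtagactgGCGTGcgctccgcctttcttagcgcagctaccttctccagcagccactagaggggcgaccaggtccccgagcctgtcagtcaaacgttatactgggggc
Pfkp: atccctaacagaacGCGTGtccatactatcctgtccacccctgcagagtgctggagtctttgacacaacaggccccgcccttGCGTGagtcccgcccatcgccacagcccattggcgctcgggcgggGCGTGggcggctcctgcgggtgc

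The PFKFB enzymes, which set the level of the activator of phosphofructokinase, were led by *Pfkfb4*. It (chromosome 9, 108991778 to 109032228, plus strand) had 226, 246 and 238 reads in WT and 146, 163 and 147 in Piezo1cko libraries, without overlap, a fall to 64.2% of WT (log2 fold change -0.28, standard error 0.04, limma adjusted p = 4.45e-06). *Pfkfb3* had 314, 300 and 326 reads in WT and 272, 290 and 274 in Piezo1cko libraries (log2 fold change -0.09, limma adjusted p = 0.0471). This call stood near the threshold and was lost without WT replicate 1 (adjusted p = 0.0886), WT replicate 3 (0.144), Piezo1cko replicate 1 (0.104) or Piezo1cko replicate 3 (0.11). *Pfkfb2*, with 36.9, 28.3 and 26 reads in WT and 21.9, 27.3 and 27.5 in Piezo1cko libraries, overlapped between the groups (log2 fold change -0.03, limma adjusted p = 0.398). Per exon base, *Pfkfb4* made up 51.5% ± 1.97 of the 3 in WT and 43.5% ± 0.638 in Piezo1cko LSCs, and *Pfkfb3* 44.0% ± 1.63 and 51.5% ± 0.645 (exact permutation p = 0.1 for each). Which of the pair had the higher level in WT LSCs depended on the gene length used, since *Pfkfb3* had more reads in every library.

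Aldolase, which splits the hexose bisphosphate, was represented by an abundant and a scarce isoenzyme. *Aldoc* (chromosome 11, 78322968 to 78327781, plus strand), the form best known from brain, had 22.3, 29.3 and 24.1 reads in WT and 53.3, 92.6 and 74.3 in Piezo1cko libraries. It was 2.91-fold higher (log2 fold change 0.29, standard error 0.04, limma adjusted p = 1.7e-05), with a log2 fold change of 1.51 on recovered reads and a wide spread among Piezo1cko libraries. *Aldoa*, the form of muscle and blood cells, had 9379, 10277 and 10176 reads in WT and 9365, 9633 and 9429 in Piezo1cko libraries, which overlapped (log2 fold change -0.05, limma adjusted p = 0.0754). It passed the test without WT replicate 1, the lowest of its group (log2 fold change -0.08, adjusted p = 0.00475). The ratio of *Aldoa* to *Aldoc* reads went from 398 ± 40.7 in WT to 136 ± 36.6 in Piezo1cko LSCs (exact permutation p = 0.1), and since 2 loci carry the symbol *Aldoa* in the annotation, their shares per exon base are uncertain. *Gpi1*, encoding glucose phosphate isomerase, was 1.07-fold higher (10459 to 10684 reads in WT and 11139 to 11446 in Piezo1cko libraries, limma adjusted p = 0.00439). *Tpi1*, encoding triosephosphate isomerase, had 3156 to 3361 reads in WT and 3024 to 3137 in Piezo1cko libraries and was not called (log2 fold change -0.05, limma adjusted p = 0.0841), although its groups did not overlap.

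In lower glycolysis, which holds the most abundant mRNAs of the pathway, 4 of 5 genes fell slightly, where 31.4% of all genes were lower. *Eno1* (chromosome 4, 150236721 to 150248879, plus strand), encoding the enolase of most tissues, had 26165, 26567 and 26236 reads in WT and 20818, 20427 and 21166 in Piezo1cko libraries. The fall to 79.0% of WT was many times the spread within either group (log2 fold change -0.25, standard error 0.02, limma adjusted p = 1.43e-10). *Pkm*, pyruvate kinase, had 22947 to 24503 reads in WT and 20512 to 21898 in Piezo1cko libraries (88.7% of WT, limma adjusted p = 3.02e-05), and *Pgk1*, phosphoglycerate kinase, 2012 to 2038 and 1682 to 1818 (86.3% of WT, limma adjusted p = 0.00024). *Gapdh*, often used as a reference gene, was not level between the groups. Its reads were 7638, 7806 and 8113 in WT and 7234, 6817 and 6906 in Piezo1cko libraries, 89.0% of WT (log2 fold change -0.12, standard error 0.02, limma adjusted p = 0.000187). *Pgam1*, phosphoglycerate mutase, had 3320, 3616 and 3811 reads in WT and 3640, 3662 and 3483 in Piezo1cko libraries, and the groups overlapped (log2 fold change 0.005, limma adjusted p = 0.903).

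Several of these genes have near-identical copies whose reads may be split by the counting, so their values carry that uncertainty. *Eno1b*, which shares sequence with *Eno1*, had 151, 190 and 188 reads in WT and 90.9, 117 and 91.6 in Piezo1cko libraries (log2 fold change -0.31, limma adjusted p = 1.35e-05), the same direction as *Eno1* with far fewer reads. *Pgam1-ps2* had 9.4 to 22.1 reads in any library, and the listed *Gapdh* pseudogenes at most 4.81. *Pgk1-rs7* had 2.09 to 12.5 reads, and the listed *Ldha* pseudogenes at most 5.09.

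The lactate genes held the largest change of the pathway on the deposited scale, while on recovered reads *Pfkm* and *Aldoc* changed more. *Ldhb* (chromosome 6, 142490249 to 142507957, minus strand), encoding the heart-type subunit of lactate dehydrogenase that prevails in tissues that take up lactate, had 674, 677 and 711 reads in WT and 251, 246 and 242 in Piezo1cko libraries. Every Piezo1cko library was far below every WT library, at 35.8% of the WT mean or 2.79-fold lower (log2 fold change -0.84, standard error 0.03, limma adjusted p = 2.4e-13), with a log2 fold change of -1.48 on recovered reads. *Ldha*, encoding the muscle-type subunit that prevails in glycolytic cells, fell only to 93.7% of WT, from 8984, 9019 and 9170 reads in WT to 8521, 8527 and 8424 in Piezo1cko libraries (log2 fold change -0.07, standard error 0.02, limma adjusted p = 0.00513). That small fall no longer passed when the library medians were set equal (adjusted p = 0.0553). Per exon base, *Ldha* made up 86.2% ± 0.222 of the pair in WT and 94.2% ± 0.07 in Piezo1cko LSCs (exact permutation p = 0.1). The ratio of *Ldha* to *Ldhb* reads was 13.3, 13.3 and 12.9 in WT and 34, 34.7 and 34.8 in Piezo1cko libraries.

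The monocarboxylate transporters moved in opposite directions. *Slc16a1* (chromosome 3, 104638668 to 104658462, plus strand), encoding MCT1, which carries lactate in either direction, had 638, 566 and 626 reads in WT and 354, 364 and 309 in Piezo1cko libraries. It fell to 56.1% of WT (log2 fold change -0.48, standard error 0.04, limma adjusted p = 1.04e-08). *Slc16a3* (chromosome 11, 120948480 to 120960868, plus strand), encoding MCT4, the exporter typical of glycolytic cells, had 564, 546 and 542 reads in WT and 861, 836 and 914 in Piezo1cko libraries. It rose 1.58-fold (log2 fold change 0.41, standard error 0.03, limma adjusted p = 6.85e-09), and neither gene's groups overlapped. The order of the pair reversed: per exon base *Slc16a1* was 57.6%, 55.5% and 58.1% of the pair in WT and 33.1%, 34.3% and 28.9% in Piezo1cko libraries (exact permutation p = 0.1). The ratio of *Slc16a3* to *Slc16a1* reads went from 0.904 ± 0.053 to 2.56 ± 0.346.

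The promoters of these 4 lactate genes are shown, in the form used above for phosphofructokinase, because the genes of each pair changed unequally. *Slc16a1* and *Slc16a3* went opposite ways, while *Ldha* and *Ldhb* both fell, *Ldhb* far more. The windows are chr7:46845654-46845803 (plus strand), chr6:142507958-142508107 (minus strand), chr3:104638514-104638663 (plus strand) and chr11:120948917-120949066 (plus strand), and for *Ldha* the first of its RefSeq starts was used. The *Ldha* window holds 5 matches of the motif, since each CACGTG counts on both strands (the window of its other start, not printed, holds 1), the *Ldhb* window 1, and the *Slc16a1* and *Slc16a3* windows 2 each. Of the *Slc16a3* window, 14 bases lie in annotated exons, and none of the others.
Ldha: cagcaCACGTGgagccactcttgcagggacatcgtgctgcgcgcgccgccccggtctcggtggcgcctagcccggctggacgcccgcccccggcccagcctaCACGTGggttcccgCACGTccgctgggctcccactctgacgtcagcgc
Ldhb: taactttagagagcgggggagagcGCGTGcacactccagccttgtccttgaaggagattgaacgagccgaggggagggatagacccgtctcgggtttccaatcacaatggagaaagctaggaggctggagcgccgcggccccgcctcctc
Slc16a1: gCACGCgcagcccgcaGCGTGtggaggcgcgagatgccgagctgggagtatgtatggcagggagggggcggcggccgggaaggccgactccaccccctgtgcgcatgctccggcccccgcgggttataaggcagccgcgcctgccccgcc
Slc16a3: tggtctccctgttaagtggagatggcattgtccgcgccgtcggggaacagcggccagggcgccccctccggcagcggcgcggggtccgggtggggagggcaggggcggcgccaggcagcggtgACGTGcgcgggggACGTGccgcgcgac

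Pyruvate dehydrogenase genes moved in both directions, 2 higher, 3 lower and 1 not called, where 63.0% of all genes were called. *Pdk2* (chromosome 11, 95026258 to 95041354, minus strand), a kinase that inactivates the complex, had 401, 345 and 355 reads in WT and 702, 598 and 696 in Piezo1cko libraries. It was 1.81-fold higher without overlap (log2 fold change 0.50, standard error 0.04, limma adjusted p = 1.11e-08). *Pdk3*, another kinase of the complex, had 919, 896 and 922 reads in WT and 859, 793 and 785 in Piezo1cko libraries (log2 fold change -0.11, limma adjusted p = 0.00858). *Pdk1*, the kinase best known as a target of hypoxia-inducible factor, had 512, 558 and 517 reads in WT and 547, 513 and 499 in Piezo1cko libraries, with overlapping groups (log2 fold change -0.02, limma adjusted p = 0.731). Within the kinases, *Pdk3* had the highest level per exon base in both groups, 65.9% ± 0.875 of the 3 in WT and 53.4% ± 1.48 in Piezo1cko LSCs, while *Pdk2* went from 21.5% ± 1.32 to 35.4% ± 1.89 and *Pdk1* from 12.6% ± 0.819 to 11.2% ± 0.407 (exact permutation p = 0.1 for each).

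The subunits of the complex did not move together either. *Dlat* (chromosome 9, 50634633 to 50659780, minus strand), its acetyltransferase core, had 2432, 2351 and 2418 reads in WT and 1792, 1852 and 1976 in Piezo1cko libraries, 78% of WT (log2 fold change -0.25, standard error 0.03, limma adjusted p = 9.08e-07). *Pdha1*, the alpha subunit that the kinases phosphorylate, was at 86.7% of WT (1115 to 1170 and 972 to 1011 reads, limma adjusted p = 0.000885). *Pdhb*, its beta partner, was 1.20-fold higher (4895 to 5128 and 5921 to 6161 reads, limma adjusted p = 1.33e-06). The genes of the partner subunits thus differed in direction, each without overlap between the groups.

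All 7 pentose phosphate genes passed the test, 3 higher and 4 lower, where 63.0% of all genes passed. The first oxidative step, *G6pdx* (glucose phosphate dehydrogenase), was at 88.9% of WT (1799 to 1895 reads in WT and 1608 to 1648 in Piezo1cko libraries, limma adjusted p = 0.00162), and the last, *Pgd* (phosphogluconate dehydrogenase), at 91.2% (2599 to 2681 and 2339 to 2433 reads, limma adjusted p = 0.00486). Both make NADPH. *Pgls* (chromosome 8, 71592176 to 71601092, plus strand), the lactonase between them, went the other way, with 1083, 1230 and 1136 reads in WT and 1783, 2104 and 2105 in Piezo1cko libraries. It rose 1.74-fold (log2 fold change 0.54, standard error 0.04, limma adjusted p = 2.65e-09). Per base of merged exons, *Pgls* moved from 305 to 530 reads per kb and *G6pdx* from 595 to 529. How the 2 genes rank depends on the gene length used. Merged exons hold 3770 bases for *Pgls* and 3080 for *G6pdx*, and the longest transcripts 2688 and 2652. In the non-oxidative arm, *Rpia*, the ribose phosphate isomerase, rose 1.48-fold (128 to 137 and 180 to 209 reads, limma adjusted p = 5.45e-05) and *Rpe*, the epimerase acting on the same substrate, fell to 82.4% (1057 to 1180 and 908 to 939 reads, limma adjusted p = 0.000131). *Tkt*, transketolase, was at 90.0% of WT (7436 to 7916 and 6609 to 7100 reads, limma adjusted p = 0.000704). *Taldo1*, transaldolase, was 1.06-fold higher (7419 to 7882 and 7936 to 8316 reads, limma adjusted p = 0.0301), a call lost without WT replicate 2 (adjusted p = 0.147), WT replicate 3 (0.0978) or Piezo1cko replicate 3 (0.158).

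**Figure D3:**
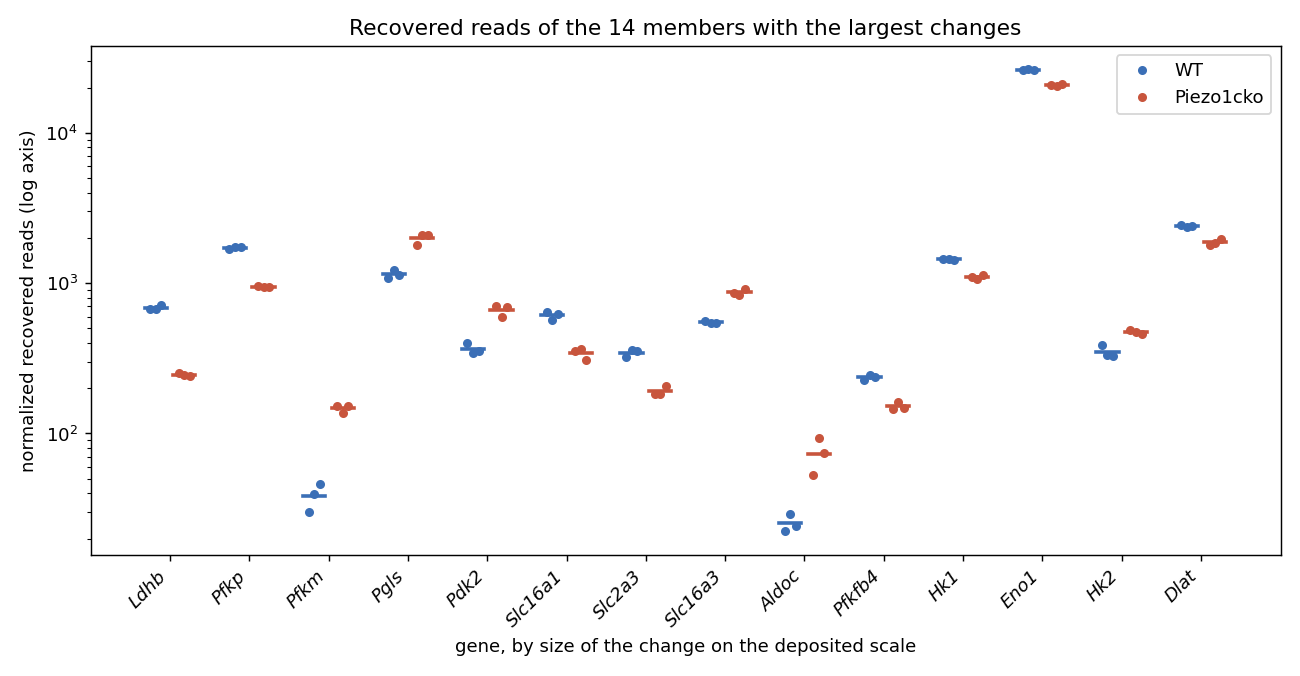
Normalized recovered reads, on a log axis, of the 14 pathway genes with the largest changes past an adjusted p of 0.05, ordered by the size of the deposited log2 fold change; points are libraries (3 WT, 3 Piezo1cko) and lines the group means. No gene has overlapping groups, and the WT points of *Pfkm* (30.1 to 46.2 reads) and *Aldoc* (22.3 to 29.3 reads) are the lowest.

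**Figure D4:**
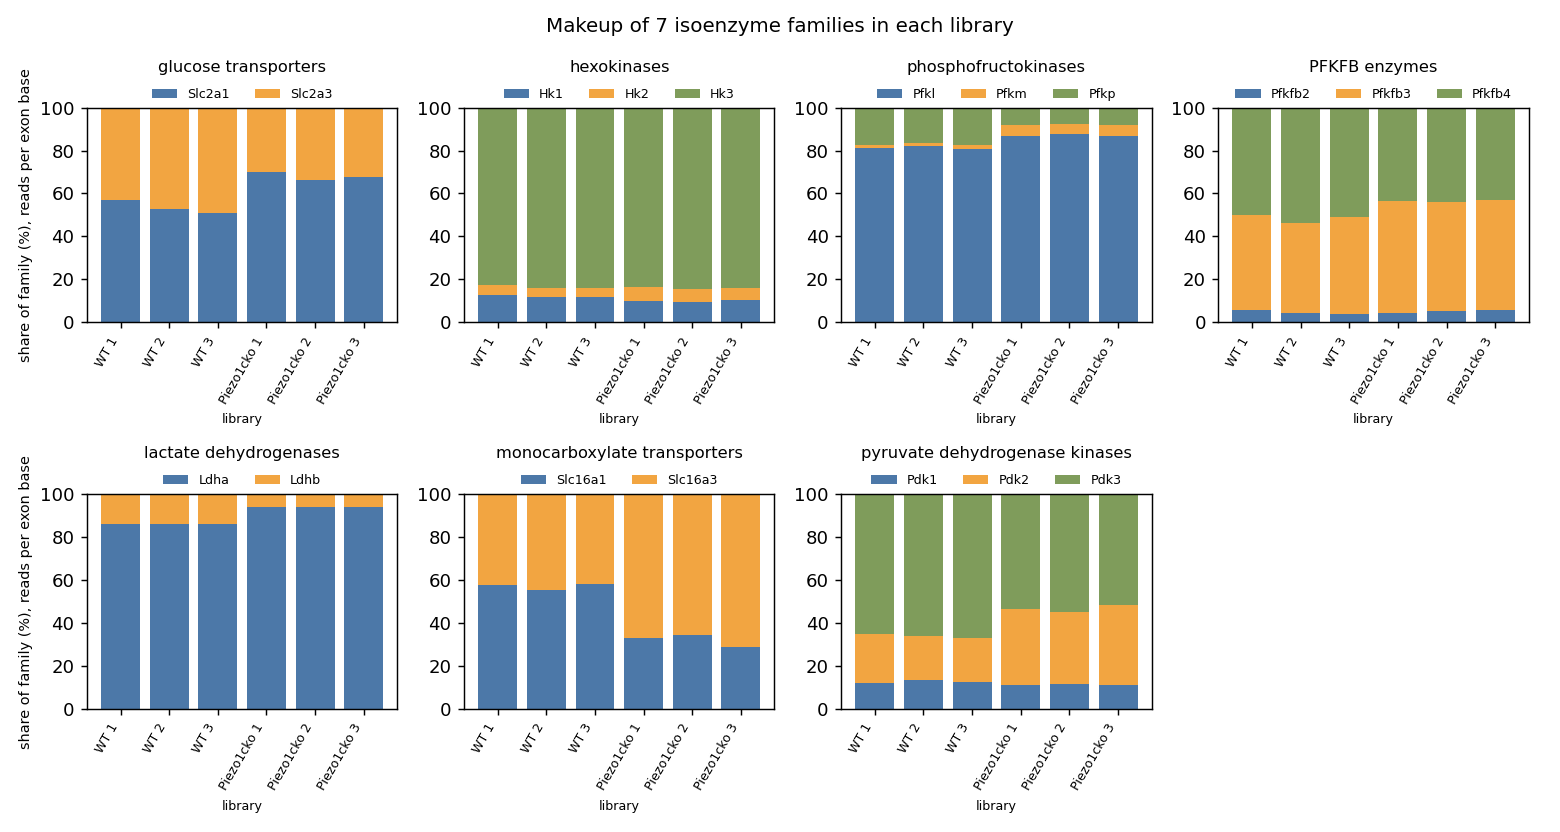
Share of each isoenzyme in the summed reads per exon base of its family (percent, bars stacked to 100), per library, for 7 families. *Slc16a1* goes from 57.1% in WT to 32.1% in Piezo1cko LSCs and *Pfkp* from 17.0% to 7.98%, while *Hk3* is at 83.8% and 84.0%.

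Summed over the route, the share of the pathway was slightly lower in every Piezo1cko library than in any WT library. The 37 genes took 0.946%, 0.977% and 0.975% of all recovered reads in WT libraries and 0.90%, 0.914% and 0.913% in Piezo1cko libraries (exact permutation p = 0.1). Lower glycolysis, the most abundant of the roles, was at 0.427% ± 0.0105 in WT and 0.369% ± 0.00238 in Piezo1cko LSCs. Lactate genes went from 0.0732% ± 0.000885 to 0.0676% ± 0.000309 and glucose transporters from 0.00361% ± 0.000111 to 0.00265% ± 0.00021, whereas pyruvate dehydrogenase genes went from 0.0696% ± 0.000502 to 0.0738% ± 0.00121 (exact permutation p = 0.1 for each, adjusted p 0.14 over 7 sums). Upper glycolysis took 0.244% ± 0.0062 and 0.246% ± 0.00307 (exact permutation p = 0.8) and the pentose phosphate arm 0.149% ± 0.00127 and 0.15% ± 0.0042 (exact permutation p = 0.6). Such sums are weighted by the most abundant genes. Mean reads in WT and Piezo1cko LSCs were 26322 and 20803 for *Eno1*, and 23935 and 21219 for *Pkm*. For *Pdhb* they were 5021 and 6012, while 3 of the 6 pyruvate dehydrogenase genes were lower.

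Since the study concerns a PIEZO1 and HIF1A axis, the regulators of these genes were set beside them. *Hif1a* had 892, 842 and 899 reads in WT and 356, 367 and 344 in Piezo1cko libraries, 40.5% of the WT mean (log2 fold change -0.79, standard error 0.03, limma adjusted p = 6.11e-13), and its partner *Arnt* was at 84.1% (limma adjusted p = 0.00208). The 3 genes examined whose products act in the destruction of HIF1A were higher: *Vhl*, the recognition subunit of its ubiquitin ligase, 1.56-fold (limma adjusted p = 4.55e-07), and the prolyl hydroxylase genes *Egln1* 2.36-fold (limma adjusted p = 5.82e-06) and *Egln3* 1.23-fold (limma adjusted p = 0.00278). *Egln1* was scarce, with 30.1, 38.3 and 31.7 reads in WT and 84.6, 70.2 and 81.4 in Piezo1cko libraries (log2 fold change 0.26). *Myc*, a transcription factor that also activates glycolytic genes, was at 84.3% of WT (limma adjusted p = 1.23e-05). Of the glucose-sensing factors, *Mlxip* was at 82.9% (limma adjusted p = 0.0039) and *Mlxipl* at 13.4%, from 36.9, 34.3 and 51 reads to 7.31, 2.92 and 6.11 (limma adjusted p = 1.57e-06). *Txnip*, their target that curbs glucose uptake, was at 48.0% (limma adjusted p = 1.58e-07), while *Arrdc4*, of the same family and also their target, was not called (log2 fold change -0.01, limma adjusted p = 0.752), nor was *Tigar* (0.09, limma adjusted p = 0.0603).

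**Figure D5:**
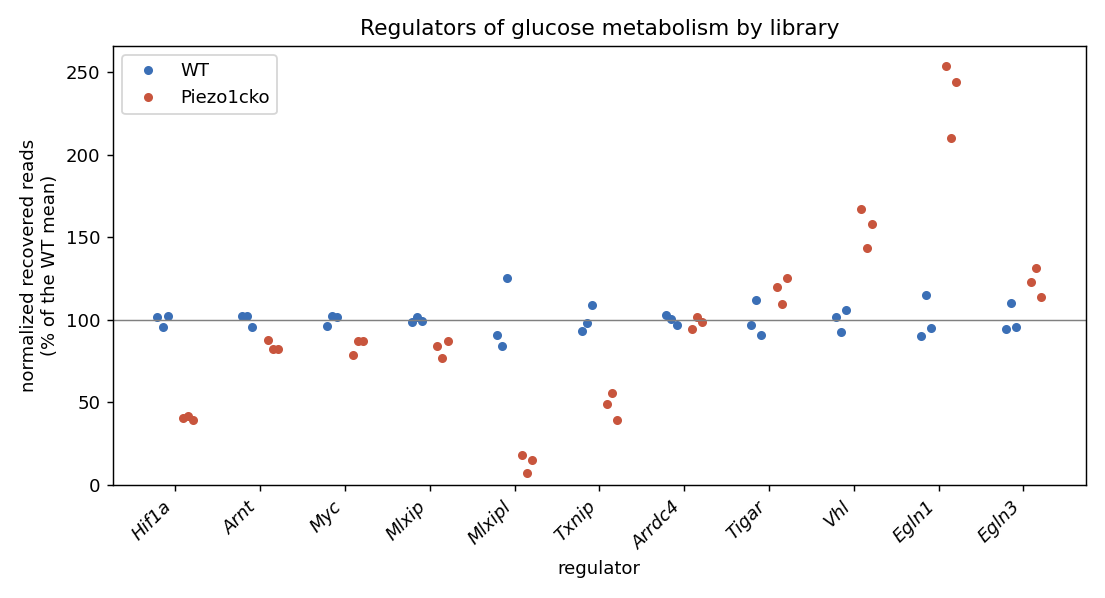
Normalized recovered reads of 11 regulators in each library, as a percentage of the gene's WT mean (grey line at 100); blue points are WT and red points Piezo1cko libraries. *Hif1a* and *Mlxipl* average 40.5% and 13.4% of WT in Piezo1cko libraries and *Egln1* 236%, while the points of *Arrdc4* and *Tigar* overlap between the groups.

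In general knowledge, 18 of the 37 genes are listed as targets of HIF1A. Of these 18, 4 were higher, 9 lower and 5 not called, with a median log2 fold change of -0.06, and of the other 19, 7 were higher, 11 lower and 1 not called, with a median of -0.09, where 31.6% of all genes were higher and 31.4% lower. The listed targets that rose were *Hk2*, *Pfkl*, *Aldoc* and *Slc16a3*. Those that fell were *Slc2a3*, *Hk1*, *Pfkfb3*, *Pfkfb4*, *Gapdh*, *Pgk1*, *Eno1*, *Pkm* and *Ldha*, while *Slc2a1*, *Aldoa*, *Tpi1*, *Pgam1* and *Pdk1* were not called. The gene with the largest fall, *Ldhb*, is not on that list. The motif ACGTG or GCGTG, searched on both strands from 250 bases before to 50 after each RefSeq start, was found in 42 of the 53 promoters of 36 matched pathway genes (79.2%), against 43.8% of 32851 RefSeq promoters. The pathway promoters were also richer in C and G, with a median of 61.0% against 52.7%. The share with the motif was 81.2% (13 of 16 promoters) for genes that were higher and 80.8% (21 of 26) for genes that were lower.

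Of 40 further genes of glucose, glycogen and pyruvate metabolism, 33 passed the filter, and 10 were higher, 12 lower and 11 not called, with a median log2 fold change of 0.01, where 63.0% of all genes were called. The glucose transporter gene *Slc2a6* rose 1.88-fold, from 264, 335 and 292 reads in WT to 524, 571 and 582 in Piezo1cko libraries (log2 fold change 0.52, limma adjusted p = 9.93e-09), the opposite of *Slc2a3*. *Adpgk*, an enzyme that phosphorylates glucose with ADP, fell to 69.0% (log2 fold change -0.36, limma adjusted p = 6.05e-08). *Mpc2*, a subunit of the mitochondrial pyruvate carrier, rose 1.45-fold (log2 fold change 0.36, limma adjusted p = 5.43e-08), while its partner *Mpc1* was not called (log2 fold change 0.03, limma adjusted p = 0.473). *Pcx*, pyruvate carboxylase, was at 57.3% of WT (limma adjusted p = 7.47e-05). *Slc16a7*, encoding MCT2, rose 1.72-fold from 29.3 to 49.5 reads in WT to 57 to 74.2 in Piezo1cko libraries (limma adjusted p = 0.00191), and *Bsg*, the chaperone of MCT1 and MCT4, fell to 90.6% (limma adjusted p = 0.000371).

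Genes that store glucose or reverse glycolysis were mixed too. *Ppp1r3b*, which brings a phosphatase to glycogen, had 55.5 to 63.1 reads in WT and 133 to 136 in Piezo1cko libraries (log2 fold change 0.36, limma adjusted p = 1.05e-07), whereas *Gys1*, glycogen synthase, fell to 77.6% (limma adjusted p = 2.1e-05) and *Fbp1*, which reverses the phosphofructokinase step, to 75.4% (limma adjusted p = 5.03e-07). The phosphoglucomutases diverged, *Pgm1* 1.17-fold higher (limma adjusted p = 0.00129) and *Pgm2* at 77.2% of WT (limma adjusted p = 5.25e-05). Several isoenzymes of other tissues were scarce: *Pdk4* and *Me1* are listed at 0 in all libraries, and *Slc2a4*, *Hkdc1* and *Eno2* were below the filter, with at most 2.02 reads in any library. The liver and red cell pyruvate kinase *Pklr* had 7.7 to 9.7 reads in WT and 0 to 2.09 in Piezo1cko libraries (at least 2.94-fold lower against a floor of 3 reads per library), and *Tktl1* 0 in WT and 4.18 to 8.77 in Piezo1cko libraries (at least 2-fold higher by the same floor).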

How the data were processed

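RNA-seq of sorted LSCs gave 3 WT and 3 Piezo1cko libraries, grouped by the labels. The authors used fastp (0.20.1) for trimming, HISAT2 (2.2.1) for mapping to GRCm38, featureCounts (2.0.1) for counting and DESeq2 (1.28.1) for normalization. The handling of strand and of reads with several matches is not given in the sources used here. The deposited table holds log2 values, not counts, and their form is that of a regularized log, which the sources do not name.

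Values were fitted as deposited, with no pseudocount, for the 16746 genes averaging 1 or more, by limma (version 3.58.1, R version 4.3.3; lmFit, and eBayes with a trend, two-sided), with Benjamini-Hochberg adjustment over all of them. The transform was undone by finding the size factors and shrinkage, from 24 starting points, that make values whole: 94.9% lay within 0.1 of a whole number in 14974 genes averaging 1 to 1000 reads, and 70.2% in 3381 genes above. Recovered reads of the 17352 genes with 10 or more in total were fitted by limma-voom. Both fits and the recovery were tested on simulated data. The recovery was tested only on reads simulated under the same transform for genes averaging 1 to 1000 reads. That test did not cover the more abundant pathway genes, such as *Eno1* and *Pkm*. Reads carry no molecular identifiers, so depth limits cover counting error only.

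Shares within families used reads per base of merged exons (GENCODE annotation of GRCm38) and an exact permutation test over libraries, two-sided. Promoter sequences were RefSeq's on GRCm38.p6, where 36 of 37 genes matched. Other steps used Python 3.11.15 (numpy 2.4.6, scipy 1.17.1, pandas 2.3.3, matplotlib 3.10.9). No 2 libraries were duplicates (chi-square per gene 1.55 to 2.81 within groups), and the labels gave no batch.

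A few listed genes are not reported here. Values in every library are given for the 14 genes with the largest absolute log2 fold change past an adjusted p of 0.05, for the isoenzyme families and for *Gapdh*. *Gapdh*, *Eno1*, *Pgam1*, *Aldoa*, *Pgk1*, *Ldha*, *Ldhb*, *G6pdx* and *Pdha1* have listed copies and are uncertain to that extent. Genes and lists were chosen with earlier results of these data known. Alternatives tried were other filters, no variance trend, a replicate block, rescaling, leaving out each library, recovered reads, and other gene lengths.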

Additional observations from a re-analysis of the deposited data

How the results depend on the processing

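Of the 37 genes, 33 to 37 kept direction and side of the threshold under each alternative. None of the 31 calls changed sign. The genes past both DEG thresholds went from 0 to 3 on recovered reads (3 with library totals, 2 with a mean of at least 50 reads), and over all genes from 137 to 4320, 4328 and 908, since the deposited values are shrunken. The median log2 fold change of -0.07 became -0.05 with library medians set equal, -0.06 after quantile normalization, -0.13, -0.11 and -0.13 on recovered reads (size factors, library totals, mean of at least 50), and -0.09 to -0.07 with 1 library left out. Calls lost under other settings were *Pfkfb3* (6 settings, adjusted p 0.0543 to 0.205), *Taldo1* (0.0586 with no filter and 0.0725 with no trend), *Hk3* (0.0788, medians equal), *Ldha* (0.0553 with medians equal and 0.144 by quantiles) and *Pdk3* (0.05, quantiles).

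The changes in share (percentage points) depended on the gene length used: without division by length and per base of the longest transcript, *Hk1* moved from -2.14 to -3.91 and -3.18, *Pfkp* from -9.05 to -14.2 and -8.04 and *Ldha* from 8.03 to 4.24 and 5.67, and per base of the longest transcript *Aldoa* from -0.584 to -0.287. With 1 library left out they ran from -2.24 to -1.96, -9.32 to -8.9, 7.9 to 8.1 and -0.698 to -0.478. Signs turned only for uncalled genes: with 1 library left out, *Slc2a1* ranged from -0.005 to 0.06, *Pgam1* from -0.03 to 0.04 and *Pdk1* from -0.04 to 0.01, and *Pdk1* was at 0.01 with medians equal and by quantiles.

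Same-numbered libraries correlated at 0.2, 0.16 and 0.07 in their deviations from the group means, each library correlating best with its own number, a hint from the data. Since the labels give no pairing and the third correlation is low, the libraries were not treated as pairs. With the replicate block, the higher and lower genes of the pathway were 11 and 22, with *Aldoa* (adjusted p = 0.00179) and *Tpi1* (0.026) added, and calls over all genes went from 10556 to 11055. Of the 37 genes, depth limits *Pfkfb2*, *Aldoc* and *Pfkm* most, at under 50 reads per library in WT LSCs. Among the regulators, *Egln1* (30.1 to 38.3 reads) and *Mlxipl* (34.3 to 51 reads) were similarly scarce in WT libraries.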
